A study of Mus musculus with 3 samples.

Results

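Glucocorticoid receptor (GR) binding was mapped by chromatin immunoprecipitation and sequencing in macrophages grown from mouse bone marrow, and the regions described here are the higher binding sites found in the wild-type peak list and missing from the GRdim list. A region was included if it was an autosomal wild-type (WT) peak with a listed height of 1.3 RPM or more (reads per 1000000 reads of its library) and no GRdim peak midpoint lay closer than 200 bp. That rule selected 247 of the 1076 WT peaks. They are called higher WT-only peaks below. Of the 394 autosomal WT peaks of that height, 62.7% were not listed in GRdim, against 76.6% of the 1031 autosomal WT peaks of any height. Peak height and absence from the GRdim list chose these regions, so both are given as a description and support nothing further.

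The WT cells came from GR+/+ mice and the other cells from GRdim mice. Donors were litter-mates, 12 weeks old, with at least 4 generations of back-crossing to BALB/c. Each genotype has 1 immunoprecipitated library, made with the antibody sc-1004 against GR, and a peak list of each was analysed. A single input library is described too, and no values of it were used. Per the labels' treatment protocol, macrophages received the synthetic glucocorticoid dexamethasone at 1 µM overnight and/or LPS, a bacterial endotoxin, at 100 ng/ml (3 hours). Which of these the ChIP libraries received is not given in the sources used here, nor is the number of animals behind a library. With 1 library for each genotype there is no replicate check, so no test between genotypes was made, and every interval below covers counting error only.

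GR is a nuclear receptor that moves into the nucleus when it binds a glucocorticoid. There it can bind a palindromic DNA element as a pair of receptors, or reach DNA through other transcription factors such as AP-1 and NF-κB. The GRdim receptor has a point mutation in the part of its DNA-binding domain where receptors meet, which weakens contact between the receptors of a pair at such an element. In macrophages, GR is known for restraining the expression of inflammatory genes and for raising the expression of anti-inflammatory ones. The comparison of the lists asks which sites were listed with the intact receptor alone; a list with a minimum height cannot show that a site was unbound.

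The higher WT-only peaks ranged in height from 1.35 to 7.10 RPM, with a median of 1.62 (quartiles 1.42 and 2.03). Low heights prevailed: 95 stood under 1.5 RPM, 85 from 1.5 to under 2, 41 from 2 to under 3, and 26 at 3 RPM or more. Heights rose in even steps that were read as whole reads, which gives a depth of about 14800000 reads in WT and 15200000 in GRdim. Reads are not given in the files, and all read numbers and Poisson intervals below assume that 1 step is 1 read. On that reading, the median peak of the set held 24 reads. Together the set held 7169 of the 22006 reads in autosomal WT peaks (32.6%). The 147 shared WT peaks of the same minimum height had a median of 1.76 RPM and reached 7.91. The 227 higher GRdim-only peaks, chosen by the mirror image of the rule (56.6% of 401 autosomal GRdim peaks), had a median of 1.52 RPM and reached 3.36.

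The lowest height in the GRdim list was 1.05 RPM, equal to 16 reads. The 95% exact Poisson interval of the WT height lay wholly above 1.05 RPM for 119 of the 247 peaks (48.2%), which were those of 25 reads or more. For the other peaks, from 20 reads upward, the interval reached down to that height or below it. This count follows from height, which the rule used, and does not set the peaks apart. Shared WT peaks of 1.3 RPM or more had a median of 26 reads, against 24 in the set, so the median shared peak passed the mark of 25. Listed heights were at least 2 times the lowest GRdim height at 59 peaks and at least 3 times at 26. At the edge of the rule, 48 peaks tied at 1.35 RPM (20 reads, interval 0.825 to 2.09) just inside it. Just outside, 42 WT-only peaks stood at 1.28 RPM (19 reads, interval 0.773 to 2.005), a difference of 1 read. Examples from the ends of these ties in list order are the peak at chr9:55091997-55092196 inside the limit and the one at chr10:18729200-18729399 outside it.

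**Figure D1:**
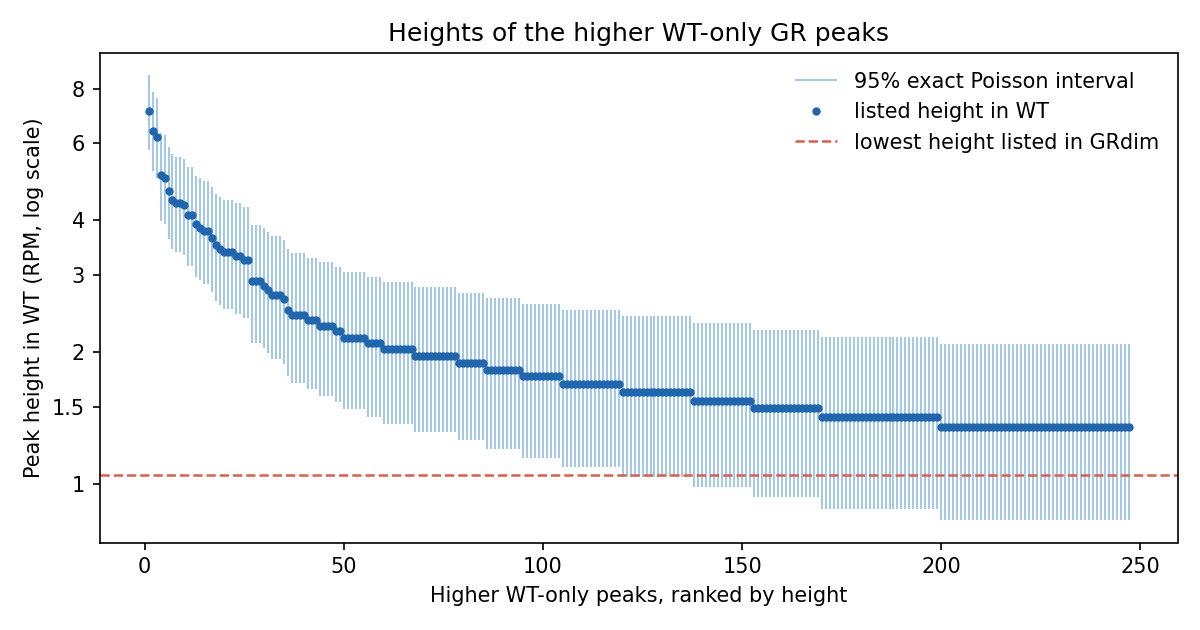
Height in WT of the 247 higher WT-only peaks (RPM, log axis), ranked, with 95% exact Poisson intervals as vertical lines. The dashed line is the lowest height in the GRdim list, 1.05 RPM, and the intervals of 119 peaks lie wholly above it.

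The tallest peaks of the set spread over the genome: the top 20 fell on 15 of the 19 autosomes (positions are mm9 and 1-based). The tallest of all lay at chr17:26672226-26672425, with 7.10 RPM or 105 reads in WT (interval 5.80 to 8.59). It was followed by chr7:71041835-71042034 with 6.42 RPM (interval 5.19 to 7.85) and chr19:22022502-22022701 with 6.22 RPM (interval 5.01 to 7.62). None of these was listed in GRdim, and their WT heights were 6.76, 6.11 and 5.92 times the lowest GRdim height. Intervals of these heights overlapped one another, so their order is not resolved by the reads.

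Next came chr2:167579468-167579667 with 5.07 RPM (75 reads), chr11:68910489-68910688 with 5.0 RPM (74 reads) and chr4:140979300-140979499 with 4.66 RPM (69 reads). The peak at chr13:42469787-42469986 had 4.46 RPM. A tie followed at 4.39 RPM, at chr4:61941248-61941447 and chr6:50923424-50923623. These sites were again in the WT list alone, with intervals that ran from 3.39 RPM at the lowest to 6.35 at the highest. Rank 10, at chr12:86873584-86873783, had 4.33 RPM.

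The second group of 10 was lower and closely spaced in height. It began with chr16:52094861-52095060 and chr3:59116638-59116837, both at 4.12 RPM, and chr17:31890488-31890687 at 3.92 RPM. It went on with chr14:26335634-26335833 at 3.85 RPM, then chr10:120073192-120073391 and chr19:23131416-23131615, both at 3.78 RPM. The last places were taken by chr17:47644960-47645159 at 3.65 RPM, chr11:115070655-115070854 at 3.51, chr9:113837793-113837992 at 3.45 and chr1:13444725-13444924 at 3.38. From rank 11 to rank 20 the reads went from 61 to 50, and every interval in this group overlapped every other. The lowest, at rank 20, had an interval of 2.51 to 4.45 RPM. It lay above the lowest GRdim height, as it did for every peak of 25 reads or more. This follows from the ranking by height and does not measure GRdim at the site.

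What surrounded these 20 peaks differed from site to site. No GRdim peak lay within 50 kb of 16 of them, no other WT peak within 50 kb of 11, and neither within 50 kb of 9. For comparison, 17.8% of all 247 peaks had a GRdim peak within 50 kb, and 33.6% another WT peak. Among lower WT-only peaks these shares were 15.5% and 19.9%. Absence of a near GRdim peak was thus common throughout and not a trait of the tallest peaks. At 8 of the 20 the nearest GRdim peak was more than 1000 kb away, as far as 8004 kb for the chromosome 7 peak and 26191 kb for the chromosome 1 peak. The same held for 36.8% of all 247 peaks. Ranks 1, 4, 7 and 14 had a GRdim peak within 50 kb. Around the chromosome 17 peak at rank 1 stood 3 shared sites, all with a greater listed height in WT: 2.30 against 1.38 RPM in GRdim at 25.8 kb, 3.92 against 1.52 at 22.7 kb, and 1.49 against 1.19 at 36.2 kb. A GRdim-only peak of 1.58 RPM lay 20.5 kb away from the same WT-only peak. This region thus had 4 peaks in each library within 50 kb, and the WT-only peak was the tallest of all 8.

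Companion peaks in WT alone were found beside others. The chromosome 7 peak at rank 2 had 3 WT-only companions, of 1.28, 1.01 and 1.62 RPM at 8.33, 14.4 and 43.5 kb, and no GRdim peak. The chromosome 11 peak at rank 5 had a single companion of 3.38 RPM at 2.32 kb, with the nearest GRdim peak 225 kb from the companion and 227 kb from the taller peak. The chromosome 4 peak at rank 8 had a companion of 1.28 RPM at 1.10 kb. The chromosome 12 peak at rank 10 had companions of 1.15 and 1.08 RPM at 9.59 and 18.6 kb. In each of these regions the ranked peak stood beside WT peaks that were lower and also not listed in GRdim. The lower height follows in part from the ranking by height. Absence from the GRdim list was common among autosomal WT peaks: 76.6% at any height, 85.2% under 1.3 RPM and 62.7% at 1.3 RPM or more. The regions were picked with their surroundings known, and whether such companions exceed these shares was not tested.

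**Figure D2:**
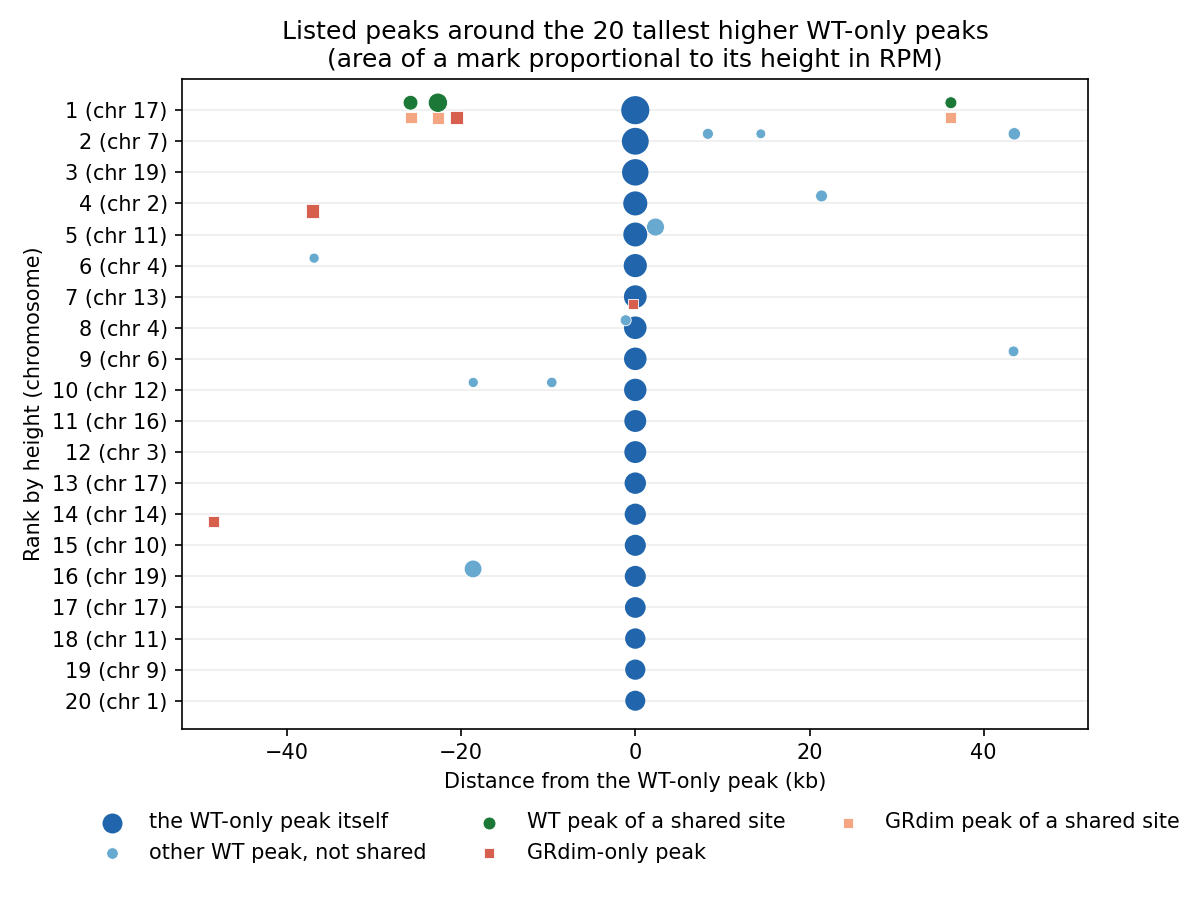
Listed peaks within 50 kb of the 20 tallest higher WT-only peaks, 1 row for each peak, by distance from it in kb. Circles are WT peaks and squares GRdim peaks, with area proportional to height in RPM. GRdim peaks appear in 4 rows, with 4 of them in the row of rank 1, and 9 rows hold no other peak.

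A few peaks of the set had a GRdim peak close by that the 200 bp limit kept apart, so that "not listed in GRdim" described an exact position more than a region. There were 5 with a GRdim midpoint within 1 kb and 7 within 2 kb. The tallest of these was the chromosome 13 peak of 4.46 RPM (66 reads), beside a GRdim-only peak of 1.19 RPM (18 reads) only 256 bp away. At chr13:51829289-51829488 a WT peak of 1.35 RPM lay 217 bp from a GRdim peak of 1.12 RPM. At chr13:53080890-53081089 the WT height was 1.69 RPM and the GRdim height 356 bp away was greater, at 1.85 RPM. These 3 pairs, all on chromosome 13, were the only ones within 500 bp in which the GRdim peak matched no other WT peak.

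The other near cases were of different kinds. At chr5:3301231-3301430 the peak of 1.82 RPM lay 379 bp from a GRdim peak of 1.25 RPM, which was itself shared with another WT peak of 1.08 RPM. At chr19:10061535-10061734 a WT height of 2.70 RPM stood 994 bp from a GRdim-only peak of 2.04 RPM. On chromosome 11, the peak at chr11:53596929-53597128 (1.55 RPM) was 1.64 kb from a GRdim-only peak of 1.25 RPM. The peak at chr11:117819539-117819738 (1.35 RPM) was 1.95 kb from a shared site of 1.76 RPM in WT and 1.58 in GRdim. Among the 5 pairs within 1 kb, the WT peak had the greater height in 4. Only the WT peaks had to reach 1.3 RPM, so this count follows in part from the selection.

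Within 20 kb, 27 of the 247 peaks (10.9%, 95% exact binomial interval 7.33 to 15.5) had a GRdim peak. The nearest was a GRdim-only peak for 15 of them, with a median GRdim height of 1.12 RPM, and the GRdim partner of a shared site for 12, with a median of 1.51. Heights of these nearest GRdim peaks ran from 1.05 to 3.30 RPM, and the WT-only peak was the taller at 20 of the 27. The rule set a minimum of 1.3 RPM for the WT-only peaks and none for these GRdim peaks. A majority of taller WT-only peaks thus follows in part from the selection. The widest gap in favour of GRdim was at chr11:83462870-83463069, where a WT-only peak of 1.35 RPM lay 2.60 kb from a GRdim-only peak of 3.30 RPM. Among the 543 lower WT-only peaks the same share was 8.84% (6.59 to 11.5), and among the higher GRdim-only peaks 13.2% (9.10 to 18.3) had a WT peak that near. The intervals overlapped, and the difference was not tested.

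The typical peak of the set was far from any GRdim peak. Its median distance to one was 524 kb, compared with 470 kb for lower WT-only peaks. Higher GRdim-only peaks were 301 kb in the median from a WT peak, and the WT list they were measured against is the longer one. At 91 of the 247 peaks (36.8%, interval 30.8 to 43.2) the nearest GRdim peak was over 1000 kb away. No listed peak of either library lay within 100 kb of 134 peaks (54.3%, interval 47.8 to 60.6). That isolated share was 59.5% (55.2 to 63.6) for lower WT-only and 53.7% (47.0 to 60.4) for higher GRdim-only peaks. By height, it followed no steady order: 56.8% (46.3 to 66.97) of the 95 peaks under 1.5 RPM, 50.6% (39.5 to 61.6) of the 85 from 1.5 to under 2, 65.9% (49.4 to 79.9) of the 41 from 2 to under 3, and 38.5% (20.2 to 59.4) of the 26 of 3 RPM or more.

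Neighbours in the peak's own library were more frequent. The WT list is the longer one (1031 autosomal peaks against 817), and the rule excluded GRdim midpoints closer than 200 bp. The same order held for lower WT-only and for higher GRdim-only peaks, so it is not particular to the set. For higher GRdim-only peaks the own list is the shorter one. The part of list length in this order was not tested. Another WT peak lay within 20 kb of 54 of the 247 (21.9%, interval 16.9 to 27.5). The share was 11.6% (9.03 to 14.6) for lower WT-only peaks and 17.7% (11.9 to 24.8) for shared WT peaks of 1.3 RPM or more. It was 17.2% (12.5 to 22.7) for higher GRdim-only peaks counted against their own list. The interval of the set did not overlap that of the lower WT-only peaks and overlapped the other ranges. Inside the set the share followed no steady order by height. It was 16.8% under 1.5 RPM, 29.4% from 1.5 to under 2, 9.76% from 2 to under 3 and 34.6% at 3 RPM or more. Neighbours count each other, so these peaks are not independent, and no test was made. The nearest of these WT neighbours was another member of the set for 22 peaks, a lower WT-only peak for 20 and a shared site for 12.

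**Figure D3:**
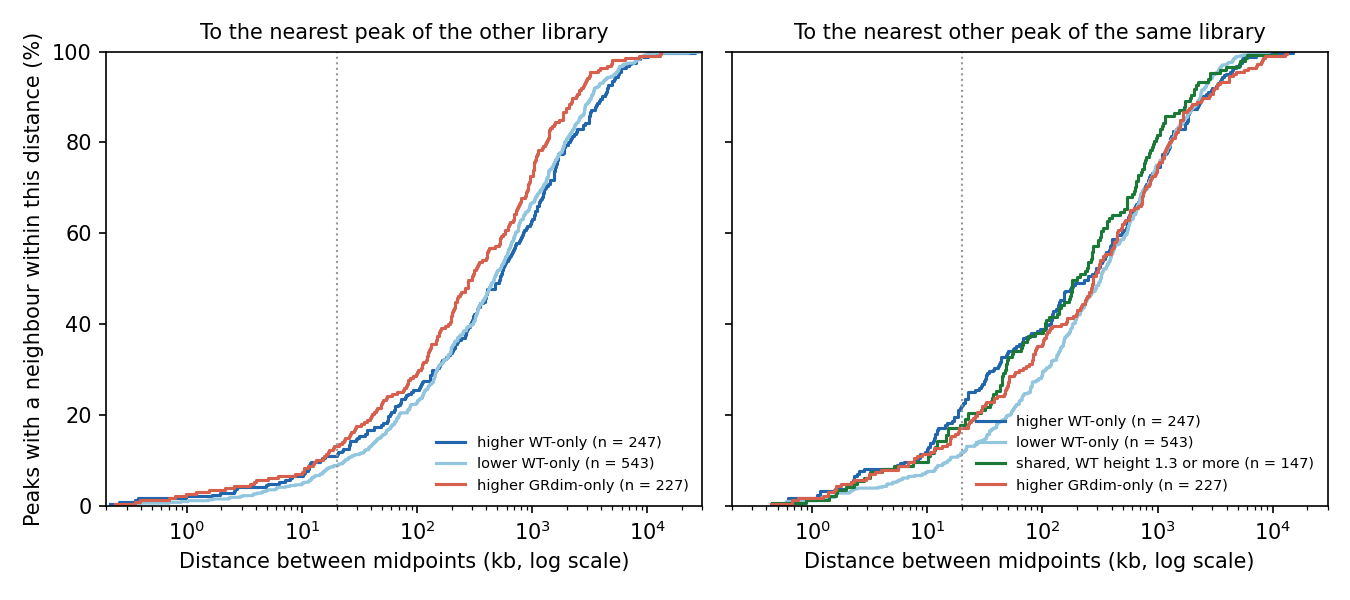
Cumulative share of peaks (%) against the distance to the nearest peak of the other library (left) and to the nearest other peak of the same library (right), in kb on a log axis, with a dotted line at 20 kb. On the right, at 20 kb, the higher WT-only peaks stand at 21.9% and the lower WT-only peaks at 11.6%.

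Within the set, 12 pairs of peaks lay within 20 kb of each other and involved 24 peaks. The pair with the greatest summed height was on chromosome 11, at chr11:68910489-68910688 and chr11:68912808-68913007, with 5.0 and 3.38 RPM at a distance of 2.32 kb. The next was on chromosome 19, at chr19:23112794-23112993 and chr19:23131416-23131615, with 3.31 and 3.78 RPM at 18.6 kb. Both pairs were made of peaks above 3 RPM, whereas no peak of the other 10 pairs was above 1.96 RPM. For 9 of the 12 pairs no GRdim peak lay within 100 kb of either peak, and for 2 a GRdim peak lay within 20 kb. Of all 247 peaks taken singly, only 25.5% had a GRdim peak within 100 kb and 10.9% within 20 kb. The pairs did not stand out from these shares.

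There were 4 pairs closer than 5 kb. Apart from the first chromosome 11 pair, they were chr11:88829590-88829789 and chr11:88830204-88830403 (1.69 and 1.35 RPM, 614 bp apart), chr11:87571785-87571984 and chr11:87572958-87573157 (1.62 and 1.89 RPM, 1.17 kb apart), and chr7:107108905-107109104 and chr7:107111478-107111677 (1.62 and 1.82 RPM, 2.57 kb apart). Chromosome 11 thus held 3 of the 4 closest pairs. Only the chromosome 7 pair had a GRdim peak within 20 kb, at 11.8 kb, and that was the GRdim peak of a shared site (1.28 RPM in WT and 1.45 in GRdim).

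In windows of 100 kb, no more than 2 members of the set fell together, which happened in 15 windows, and 217 windows held a single one. The windows with the greatest summed height were chr11:68900001-69000000 (8.38 RPM), chr7:71000001-71100000 (8.04 RPM) and chr19:23100001-23200000 (7.09 RPM). The chromosome 11 and 19 windows held the pairs described above and nothing else. The chromosome 7 window held the rank 2 peak of 6.42 RPM, a second one of 1.62 RPM and 2 lower WT-only peaks. None of the 3 windows had a GRdim peak, as was so for 9 of the 15 windows with 2 members. The same share for windows with a single member is not given here.

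Shared sites near the set provided a reading of both libraries in the same regions that the selection had not used. There were 25 autosomal shared sites within 50 kb of a higher WT-only peak. The listed height was greater in WT at 10 of them (40%, interval 21.1 to 61.3), beside 40.2% of all 241 autosomal shared sites. Their median log2 ratio of WT over GRdim height was -0.23, against -0.07 over all shared sites. The 2 shares lay close together, and the interval for the 25 sites is wide. Several of the 25 sites lay near the same WT-only peak, so they are not independent, which the interval does not cover. Near a higher GRdim-only peak, WT was the taller at 7 of 15 (46.7%, interval 21.3 to 73.4).

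The 25 sites differed widely among themselves. The greatest excess in WT was at chr13:5614123-5614322, with 4.87 RPM in WT and 1.45 in GRdim (72 and 22 reads), 10.6 kb from a WT-only peak of 2.23 RPM. The chromosome 17 site of 3.92 and 1.52 RPM near the rank 1 peak was second. At chr6:97399916-97400115 the heights were 2.70 and 1.25 RPM (40 and 19 reads), 2.83 kb from a WT-only peak of 1.76 RPM. These 3 were the only ones with a log2 ratio above 1.

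The opposite order was seen beside peaks of the set as well. At chr1:39635370-39635569 the shared site had 1.22 RPM in WT and 2.37 in GRdim (18 and 36 reads), 25.9 kb from a WT-only peak of 2.50 RPM. At chr4:144863781-144863980 it had 1.22 and 2.24 RPM (18 and 34 reads), and a WT-only peak of 3.31 RPM lay 6.24 kb away. There a higher peak listed in WT alone and a shared site taller in GRdim stood side by side. On chromosome 19, at chr19:11182449-11182648, the shared heights were 2.10 and 2.90 RPM, with a WT-only peak of 2.30 RPM at 11.5 kb.

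**Figure D4:**
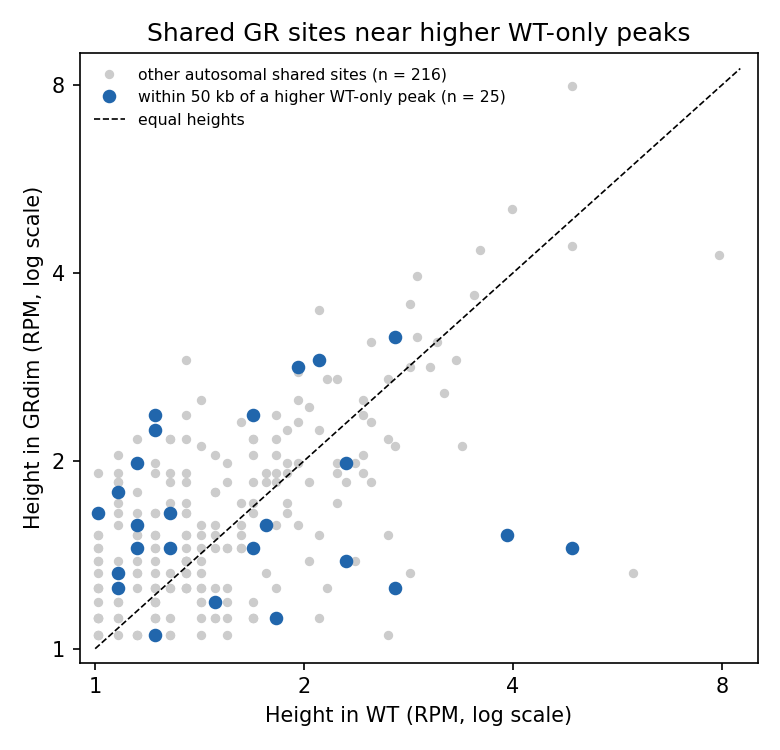
Height in WT and in GRdim (RPM, log axes) of the 241 autosomal shared sites, with the 25 that lie within 50 kb of a higher WT-only peak in blue and equal heights as a dashed line. Of these 25, 10 lie on the WT side of the line and 15 on the GRdim side.

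All 19 autosomes carried higher WT-only peaks, from 4 on chromosome 18 to 25 on chromosome 11. They made up 24.0% of autosomal WT peaks (interval 21.4 to 26.7). The share was highest on chromosome 7, with 22 of 55 (40%, interval 27.0 to 54.1), and lowest on chromosome 5, with 6 of 55 (10.9%, interval 4.11 to 22.3). The intervals of these chromosomes lay above and below the share for all autosomes. They were singled out from 19 after their values were seen, and no test was made. Chromosome 5 carried 40 lower WT-only peaks and chromosome 7 carried 22.

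Counted only over WT peaks of 1.3 RPM or more, the share not listed in GRdim was 75.9% on chromosome 7 (22 of 29, interval 56.5 to 89.7) and 66.7% on chromosome 5 (6 of 9, interval 29.9 to 92.5). Both intervals held the 62.7% of all autosomes. By this count the lowest was chromosome 16, with 6 of 17 (35.3%, interval 14.2 to 61.7), and the highest chromosome 19, with 14 of 18 (77.8%, interval 52.4 to 93.6). The chromosome 16 interval lay just below the 62.7% of all autosomes, and that of chromosome 19 held it. Both were singled out from 19 after their values were seen, and no test was made. Chromosome 19 carried 3 peaks of the set above 3.3 RPM, at 6.22, 3.78 and 3.31. On chromosome 8, by contrast, the tallest of the 6 peaks reached 1.69 RPM.

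**Figure D5:**
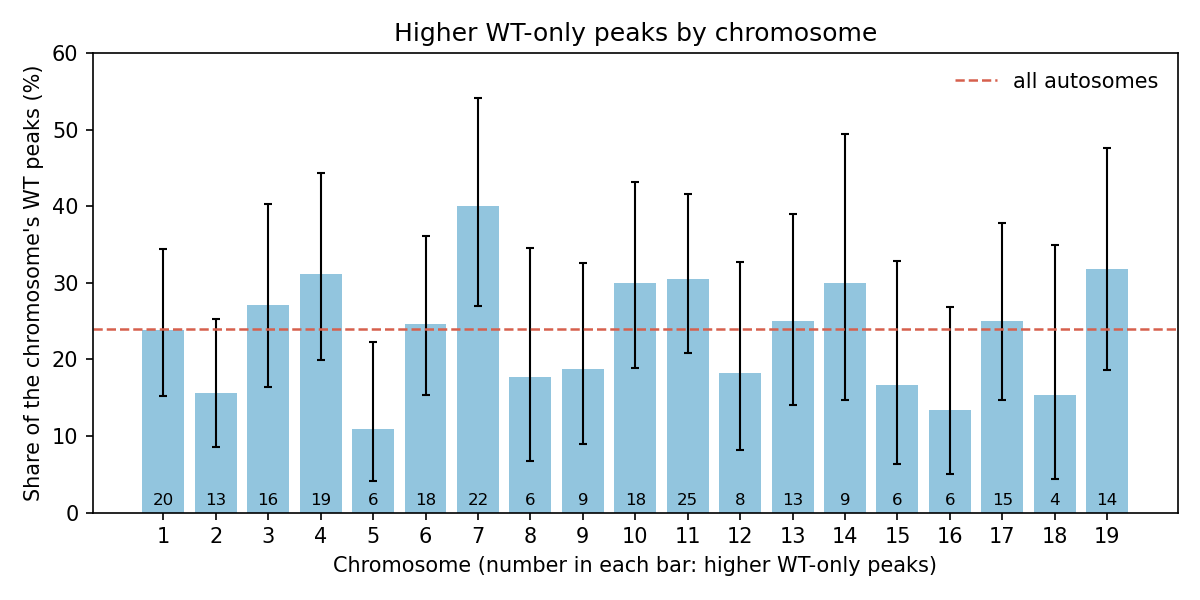
Higher WT-only peaks as a share of all WT peaks of each autosome (%), with 95% exact binomial intervals, and their number in each bar. The dashed line marks the 24.0% of all autosomes. The bars of chromosomes 7 (40%) and 5 (10.9%) have intervals that do not reach it.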

How the data were processed

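The authors' deposited files give, for each ChIP library, 200 bp peaks with a height, taken as RPM because peak names carry the mark 1rpm; no header states the unit. Per the submitters' processing notes, Bowtie and the build mm9 were used. For the peak caller, thresholds and use of the input, nothing is given in the sources used here. All peaks carry the same strand sign, which was not used. The step between heights that best gave whole numbers, searched from 0.03 to 0.2 RPM, was taken as 1 read (0.0676 RPM in WT and 0.0659 in GRdim). Within 0.1 read, 1073 of 1076 and 822 of 822 heights were whole. A fit that starts from the lowest height as 1 read made only 51.5% of WT and 45.7% of GRdim heights whole. No read numbers are given to check the step against, so it remains an assumption. Every read number and Poisson interval rests on it. Distances are between midpoints. Intervals are 95% exact Poisson (heights) or Clopper-Pearson (shares). Matching and step fit were tested on simulated lists, which checks the code and not that assumption. Regions, lists and thresholds were chosen with earlier results of these data known; the heights of shared sites near the set, the pairs and the isolated share were added after the data were seen. Named were the 20 tallest peaks, peaks at the height limit, peaks with a GRdim midpoint at 200 to 2000 bp and the 3 fullest 100 kb windows; other named peaks were chosen after their values were seen. Genes, motifs and sequences were not analysed, because the reference at hand is GRCm38. Python 3.11.15, numpy 2.4.6, pandas 2.3.3, scipy 1.17.1 and matplotlib 3.10.9 were used.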

Additional observations from a re-analysis of the deposited data

How the results depend on the processing

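Of 22 alternative values, 11 stayed within their limits and 11 moved. Shares at other distances and medians at other minimum heights change with the setting itself, so the tally does not measure robustness. Shares moved past their interval, the median height past its order-statistic interval (1.55 to 1.69 RPM), and counts by over 1.5 times. The number of peaks was 152 at 1.5 RPM or more and 67 at 2 RPM or more. It was 344 at 1.2 RPM, 253 with chromosome X, and from 242 to 252 with a limit of 1000, 500 or 100 bp to the nearest GRdim midpoint. The median height was 1.42, 1.96 and 2.70 RPM at minimum heights of 1.2, 1.5 and 2 RPM, which the rule itself sets. The share with a GRdim peak nearby was 6.48% within 10 kb, 17.8% within 50 kb and 25.5% within 100 kb. The share with another WT peak nearby was 12.6%, 33.6% and 38.9% at the same distances. Within 20 kb these shares stayed between 7.46% and 9.88% and between 19.4% and 25% at the other minimum heights. Alternatives on motifs and gene starts were not run, because no mm9 reference was at hand. Leaving out a library was not possible with 1 for each genotype. No paired analysis was possible because each group holds 1 library. At the minimum height a peak rests on 20 reads, and its counting interval (0.825 to 2.09 RPM) includes the lowest GRdim height of 1.05 RPM.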

Other observations

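By the same rule, chromosome X carried 6 higher WT-only peaks, the tallest at 2.23 RPM, out of 19 WT peaks, and 1 higher GRdim-only peak of 1.32 RPM out of 5. Chromosome Y carried 22 out of 26 WT peaks, the tallest at 15.48 RPM, and no GRdim peak. These peaks are not among the 247 regions. Whether donor sex differed between the libraries was not tested. With 1 library for each genotype, such a difference could not be told apart from genotype, for the 247 autosomal regions as well.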
